A study of Mus musculus with 461 samples.

Results

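Amino acid transporter genes of the Slc1, Slc3, Slc7 and Slc38 families were followed through a reprogramming course of mouse embryonic fibroblasts. Every row of the deposited TPM table whose symbol names a numbered member of these families was taken, without regard to its values. That gave 35 genes of 31673, with 7 in Slc1, 2 in Slc3, 15 in Slc7 and 11 in Slc38. RNA was sequenced from 461 single cells, captured and lysed one by one on the microfluidic chip of the Fluidigm C1, on 6 days of a course named 7F in the titles. The cells came from OG2 transgenic embryonic fibroblasts, in which green fluorescent protein reports Pou5f1 (Oct4) activity, on a background of 129SVJ, C57B6 and CBA, and the same strain is given for all days. Day 0 comprised 20 cells of title prefix b1 and 54 of b2, day 1 comprised 58 cells of b2, and day 3 comprised 61 cells of b1 and 58 of b2. Day 4 comprised 59 cells of b3, day 5 comprised 5 cells of b1 and 79 of b2, and day 7 comprised 2 cells of b1 and 65 of b2. The meaning of the prefix is not stated, and the labels neither name the 7 factors nor give a count of embryos, derivations or infections.

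Fibroblasts were kept in medium with 10% serum, a glutamine dipeptide and added non-essential amino acids, and reprogramming cells in iCD1, a chemically defined medium. Medium, factors and time therefore cannot be told apart between day 0 and later days. Sall4, Esrrb and Nanog, which belong to the published 7F cocktail, already averaged 186, 1174 and 274 TPM in the b1 cells of day 0 and 156, 835 and 336 TPM in the b2 cells, so day 0 is no factor-free state by its transcripts. These 3 genes were chosen after their values were seen. Col1a1, the main collagen gene of fibroblasts, averaged 9.88 TPM in the 65 b2 cells of day 7 and 158 TPM in the 2 b1 cells, against 342 and 202 TPM in b1 and b2 at day 0. Dppa5a, a gene of pluripotent cells, averaged 8606 TPM in the b2 cells of day 7 and 5205 TPM in the 2 b1 cells, against 0 and 0.0137 TPM in b1 and b2 at day 0. The median count per cell ranged from 0.983 mega-counts at day 4 to 3.31 mega-counts in the b2 cells of day 0.

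Transporters of these families move amino acids across membranes in 4 broad ways. Slc1 carriers take up glutamate and aspartate with sodium or exchange small neutral amino acids. The cationic carriers of Slc7 take up arginine and lysine alone. The light chains of Slc7 exchange amino acids and reach the surface only when bound to a heavy chain, Slc3a2 (4F2hc) or Slc3a1 (rBAT). Slc38 holds the sodium-coupled system A and system N carriers of glutamine and other neutral amino acids. In fibroblasts and in embryonic stem cells these carriers feed protein synthesis, the glutathione pool and the amino acid sensing of mTORC1, and several respond to amino acid shortage through the transcription factor Atf4.

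A set is all cells of 1 prefix on 1 day, and the 8 sets with 10 or more cells were compared. Levels of days 5 and 7 are those of b2 unless b1 is named, and ranges over sets are over these 8. Counts were summed over the cells of a set, scaled to counts per mega-count (CPM), and tested with edgeR's quasi-likelihood F test over 22378 genes. Calls are those with an adjusted p (Benjamini-Hochberg) under 0.05. There were n = 2 sets on days 0 and 3 and n = 1 on each other day, so only days 0 and 3 give a spread between sets. The p-values rest on that spread as shared over genes rather than on that of each gene, and it may be technical. Of the 35 genes, 34 had a count in at least 1 cell, all but Slc7a12. The fit held 32, since Slc7a10, Slc7a12 and Slc7a15 were too low to enter.

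Of these genes 5 changed on at least 1 day, and 3 of the 5 belong to Slc7, which holds 15 of the 35 genes. The share of all genes called on at least 1 day was not counted. The light chain gene Slc7a9 rose on every later day relative to day 0. The cationic carrier gene Slc7a3 rose at days 5 and 7, and the light chain gene Slc7a7 rose at day 3. Slc38a4 of system A fell at day 3, and Slc38a5 of system N rose at day 7 on the reads of 3 cells. The most abundant members, Slc38a2 and Slc3a2, did not pass the test on any day. At day 1, 1 of the 32 rose and 0 fell, where 1.18% of all genes tested were called (0.934% higher and 0.250% lower). At day 3, 2 rose and 1 fell, where 3.14% of all genes were called (2.10% higher and 1.04% lower). At day 4, 1 rose and 0 fell, beside 3.03% of all genes (2.07% higher and 0.965% lower). At day 5, 2 rose and 0 fell, beside 4.73% (2.56% higher and 2.18% lower), and at day 7, 3 rose and 0 fell, beside 6.60% (3.55% higher and 3.05% lower). With 32 genes a single call moves the share by about as much as the background itself, so nothing particular to these families is read from the counts. The median log2 fold change of the 32 genes was -0.07, 0.30, 0.30, 0.30 and 0.18 at days 1, 3, 4, 5 and 7, beside 0, 0.11, 0, 0 and 0 over all genes. All 5 comparisons share the day 0 sets.

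**Figure D1:**
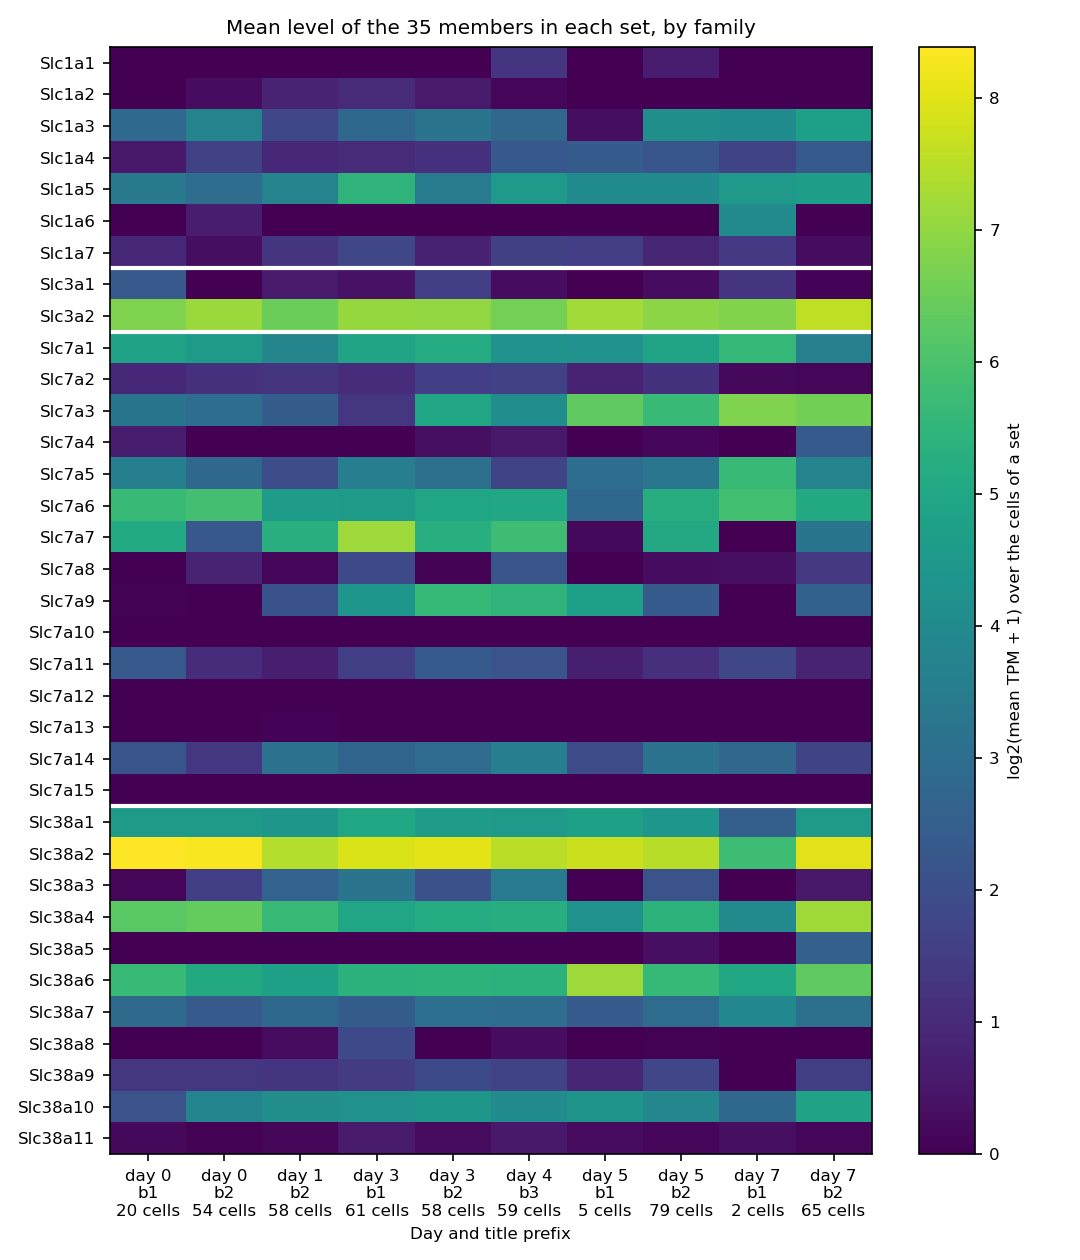
Mean level of each of the 35 genes (rows, grouped by family) in each of the 10 sets (columns, by day and prefix, with the number of cells), coloured by log2 of the mean TPM plus 1. Over the 8 larger sets Slc38a2 averaged 171 to 334 TPM and Slc3a2 89.4 to 190 TPM, while Slc7a9 was dark at day 0 and brightest at days 3 and 4, and the 5 b1 cells of day 5 averaged 25.4 TPM of Slc7a9.

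Slc7a9 (ENSMUSG00000030492, chromosome 7) encodes b0,+AT, the light chain that pairs with Slc3a1 in kidney and intestine and exchanges cystine and basic amino acids for neutral ones. Its level was 0.0718 and 0 CPM in b1 and b2 at day 0 and 4.03 CPM at day 1. It was 16.7 and 51.1 CPM in b1 and b2 at day 3, 38.8 CPM at day 4, 5.47 CPM at day 5 and 6.31 CPM at day 7. Every later set of the 8 lay above both day 0 sets, and days 3 and 4 were higher than days 1, 5 and 7. At day 0 only 4 counts were found, all in 1 cell. The log2 fold change against day 0 was 7.17 ± 1.30 (SE) at day 1, 10.25 ± 1.38 at day 3 and 10.44 ± 1.42 at day 4. At days 5 and 7 it was 7.62 ± 1.31 and 7.82 ± 1.32. The edgeR adjusted p was 1.88e-05, 4.92e-11, 9.50e-11, 8.29e-07 and 3.03e-07 in the order of the days. The fold sizes rest on those 4 counts: without the b1 set of day 0, which holds them, day 0 has no count and the 5 fitted values, 12.3 to 15.5, depend on the prior count, without the b2 set from 5.79 to 9.06, and all were called. Slc7a9 was not called on any day by limma on log2(TPM + 1) (adjusted p from 0.209 to 0.676) or with all 10 sets in the fit (adjusted p from 0.0925 to 1.0). Day 5 did not differ from day 3 by the same test (log2 fold change -2.63 ± 1.25, edgeR adjusted p = 0.521).

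Cells with a Slc7a9 TPM of 1 or more, taken as detection, numbered 0 of 20 and 0 of 54 in b1 and b2 at day 0. With 0 positive cells the exact 95% intervals reach up to 16.8% and 6.60%. They numbered 7 of 58 at day 1, 24 of 61 and 22 of 58 in b1 and b2 at day 3, 25 of 59 at day 4, 6 of 79 at day 5 and 9 of 65 at day 7. Both day 3 sets and the day 4 set thus had near 4 in 10 cells positive, 39.3% (exact 95% interval 27.1 to 52.7), 37.9% (25.5 to 51.6) and 42.4% (29.6 to 55.9). The day 4 cells had the fewest counts per cell of the 8 sets. With each cell thinned to 300000 counts the shares with a count were 34.4%, 32.8% and 33.9% in these sets. They were 10.3% at day 1, 10.1% at day 5 and 15.4% at day 7. Before thinning, the shares with a TPM above 0 were 60.7% and 53.4% in b1 and b2 at day 3 and 42.4% at day 4. On days 1, 5 and 7 they were 17.2%, 20.3% and 16.9%. Among positive cells the level was uneven: a single cell held 46.6% of the day 1 counts and 57.8% of the day 7 counts, against 18.8% and 28.4% at day 3. The reads carry no molecular identifiers, so these intervals and limits stand for counting error alone.

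Slc7a7 (ENSMUSG00000000958, chromosome 14) encodes y+LAT1, the light chain that pairs with Slc3a2 and exchanges basic for neutral amino acids, known from kidney, intestine and macrophages. It had 49.1 and 4.06 CPM in b1 and b2 at day 0, and in b1 a single cell held 99.96% of those counts. The later sets had 70.01 CPM at day 1, 167 and 49.3 CPM in b1 and b2 at day 3, 72.3 CPM at day 4, 44.7 CPM at day 5 and 8.43 CPM at day 7. Both day 3 sets lay above both day 0 sets, by little for b2 at day 3 over b1 at day 0. Slc7a7 rose at day 3 relative to day 0, by a log2 fold change of 2.03 ± 0.53 (edgeR adjusted p = 0.00785), while the other 4 days did not pass the test. In the b1 pair alone the log2 difference was 1.75 and in the b2 pair 3.32, as log2 of CPM plus 1 with no test.

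Shares of cells describe the sets only, since cells of a set are not replicates and the exact intervals hold counting error alone. Slc7a7 was detected in 1 of 20 and 7 of 54 cells in b1 and b2 at day 0, and in 41 of 58 cells at day 1. It was then detected in 43 of 61 and 35 of 58 cells in b1 and b2 at day 3, 40 of 59 at day 4, 41 of 79 at day 5 and 17 of 65 at day 7. In percent this was 70.7% (exact 95% interval 57.3 to 81.9) at day 1, against 5% (0.127 to 24.9) and 12.96% (5.37 to 24.9) in b1 and b2 at day 0. Without the b1 set of day 0, edgeR called Slc7a7 higher at days 1, 3, 4 and 5, with log2 fold changes of 4.11, 4.74, 4.16 and 3.46 (adjusted p = 2.19e-06, 3.01e-09, 5.79e-07 and 2.56e-05). Without the b2 set of day 0 the day 3 call was lost (1.14 ± 0.54), and the log2 fold change at day 7 was -2.54. The b1 set that is then left at day 0 holds 99.96% of its Slc7a7 counts in 1 cell, so both values rest on that cell. Without the b1 set of day 3 the day 3 call was lost as well, with a log2 fold change of 0.89 ± 0.75. DESeq2, limma on log2(TPM + 1) and the fit with all 10 sets did not call day 3 (adjusted p = 0.236, 0.555 and 0.9), while with the highest cell of every set left out it was called at 6.07 (adjusted p = 1.06e-04).

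Macrophages are another known site of Slc7a7. The 8 macrophage markers summed to between 1.43 and 22.7 TPM, with Adgre1 at 0 in all 8 sets, Tyrobp at 0 in 7 and Cd68 as the highest marker in 7. Epithelial markers, which mark the tissues where Slc7a9 and Slc7a7 are best known, summed to 233 and 130 TPM in b1 and b2 at day 0, 88.05 TPM at day 1, 53.3 and 75.4 TPM in b1 and b2 at day 3, 76.8 TPM at day 4, 102 TPM at day 5 and 554 TPM at day 7. Fibroblast markers summed to between 354 and 1021 TPM in the later sets, against 2220 and 1459 TPM in b1 and b2 at day 0. Pluripotency markers summed to 10266 TPM at day 7, against 0.508 and 0.248 TPM in b1 and b2 at day 0. A single gene gave most of several of these sums. Krt18 averaged 203 and 94.5 TPM in b1 and b2 at day 0, with Epcam, Krt5 and Cldn7 at 0 in b2. At day 7 Vim averaged 322 TPM and Dppa5a 8606 TPM. These lists hold 8 genes each, they move with the day, and their part in the changes of single transporters was not tested.

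**Figure D2:**
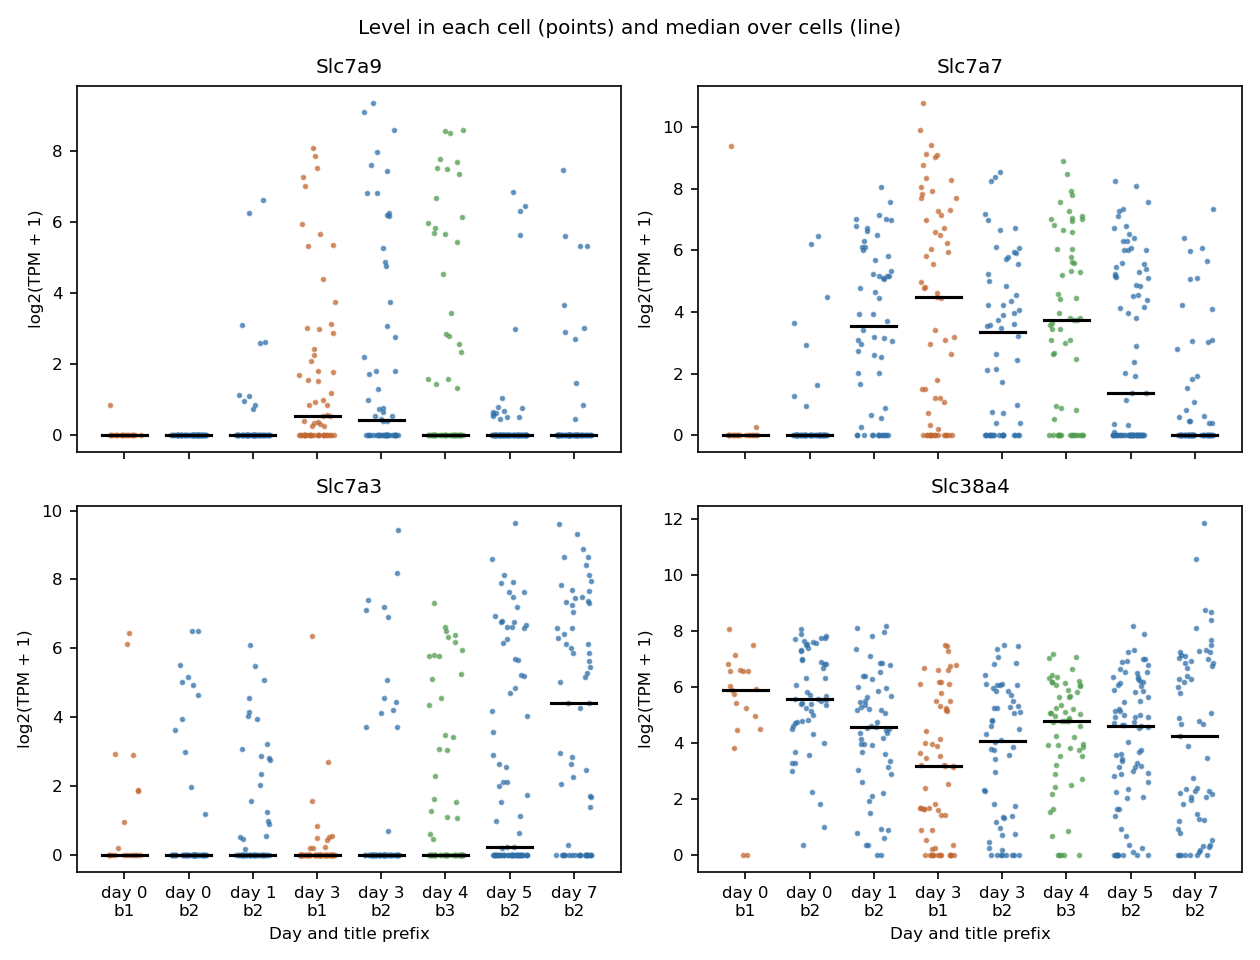
Level of Slc7a9, Slc7a7, Slc7a3 and Slc38a4 in each cell (points, log2 of TPM plus 1) of the 8 larger sets, by day and prefix, with the median over the cells of a set as a black line and colours for the prefixes b1, b2 and b3. Slc7a9 lay at or near 0 in all day 0 cells, the median of Slc7a7 was above 0 at days 1 to 5, and the median of Slc7a3 was highest at day 7, with 20.4 TPM.

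The 250 bases before the most upstream start that the RefSeq promoter table lists for Slc7a9 (chr7:35448842-35449091, GRCm38.p6, plus strand) and for Slc7a7 (chr14:54417945-54418194, GRCm38.p6, minus strand) are shown because these light chain genes both had their highest set level at day 3. Lower case marks the plain sequence, and capitals mark the core of an amino acid response element, TGATGNAA, the element that Atf4 is known to bind with a partner.
Slc7a9: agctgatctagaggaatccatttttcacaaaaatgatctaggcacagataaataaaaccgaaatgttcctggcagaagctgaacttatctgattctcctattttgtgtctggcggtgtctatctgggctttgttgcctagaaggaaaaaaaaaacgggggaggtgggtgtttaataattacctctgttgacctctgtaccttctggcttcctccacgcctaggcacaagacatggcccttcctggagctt
Slc7a7: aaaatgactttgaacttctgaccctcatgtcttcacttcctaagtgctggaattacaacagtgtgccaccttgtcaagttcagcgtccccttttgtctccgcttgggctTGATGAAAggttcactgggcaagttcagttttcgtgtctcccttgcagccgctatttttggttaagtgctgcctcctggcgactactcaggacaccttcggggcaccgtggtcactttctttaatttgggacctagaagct
The table gives 2 starts for Slc7a9 and 5 for Slc7a7, and only the most upstream of those listed was searched, on both strands. In the RefSeq gene table the outer bound of both genes lies further upstream, so a transcript start outside these windows was not searched. The Slc7a7 window holds TGATGAAA on the gene's own strand, starting 141 bases before the start, and the Slc7a9 window holds no match. Of the 35 genes 26 had a promoter in the table, and 2 of these, Slc7a7 and Slc7a11, held the core, against 3.53% of 27025 promoters of the same length. The octamer ATGCNAAT of Pou5f1 was found before Slc38a5, Slc7a11 and Slc7a15 (2.89% of all promoters), and TCAAGGTCA, bound by Esrrb, before none of the 26 (0.366% of all). A match is a run of letters and not a tested site, and the motifs do not overlap in the windows shown.

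The heavy chain genes were measured beside their light chains. Slc3a2, which carries y+LAT1, LAT1 and xCT to the surface, was detected in 452 of 461 cells. Its level was 157 and 179 CPM in b1 and b2 at day 0, 141 CPM at day 1, 162 and 148 CPM in b1 and b2 at day 3, 121 CPM at day 4, 162 CPM at day 5 and 229 CPM at day 7. Its log2 fold changes against day 0 ranged from -0.48 ± 0.51 at day 4 to 0.44 ± 0.50 at day 7, and none passed the test. Slc3a1, the known partner of Slc7a9, was detected in 28 of 461 cells and in at most 6 cells of any set. Of the 94 cells with Slc7a9, 10 also had Slc3a1 and 93 had Slc3a2. At days 3 and 4, where Slc7a9 was most frequent, 2 of 24, 1 of 22 and 3 of 25 positive cells had Slc3a1 in day 3 b1, day 3 b2 and day 4. Of the 225 cells with Slc7a7, 221 had Slc3a2. Slc3a1 had 6.23 and 0.00662 CPM in b1 and b2 at day 0 and did not pass the test on any day.

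**Figure D3:**
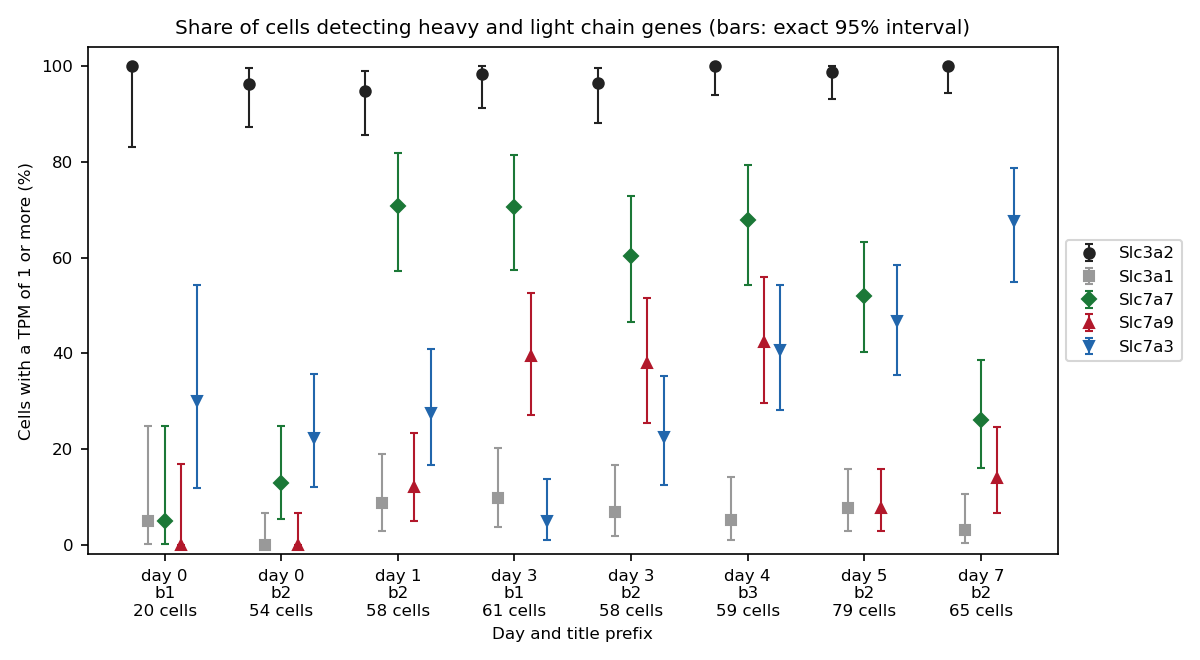
Share of cells with a TPM of 1 or more for the heavy chain genes Slc3a2 and Slc3a1, the light chain genes Slc7a7 and Slc7a9 and the cationic carrier gene Slc7a3, by set, with exact 95% intervals as bars. Slc3a2 was at 94.8% or more and Slc3a1 at 9.84% or less in each of the 8 sets, Slc7a7 was at 70.7% already at day 1, and Slc7a9 lay between 37.9% and 42.4% at days 3 and 4.

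Slc7a9 and Slc7a7 were found together in 19 of 61 and 14 of 58 cells in b1 and b2 at day 3 and in 16 of 59 cells at day 4. In the same 3 sets 5, 8 and 9 cells had Slc7a9 without Slc7a7, and 24, 21 and 24 cells had Slc7a7 without Slc7a9. Both genes of a cell are read at the depth of that cell, so these counts describe the sets only.

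Other light chains did not pass the test. Slc7a6 (y+LAT2), the close relative of Slc7a7 with broad expression, had 53.5 and 83.7 CPM in b1 and b2 at day 0. Its later values were 52.3 CPM at day 1, 27.1 and 31.4 CPM in b1 and b2 at day 3, 36.8 CPM at day 4, 45.6 CPM at day 5 and 32.8 CPM at day 7. All of these lay below both day 0 sets, with a log2 fold change of -1.23 ± 0.56 at day 3 (edgeR adjusted p = 0.324). Slc7a5 (LAT1), the exchanger that brings in leucine and other large neutral amino acids, had its lowest values with 7.30 CPM at day 1 and 5.41 CPM at day 4 and its highest with 33.1 CPM at day 7, against 31.3 and 18.9 CPM in b1 and b2 at day 0. The day 4 log2 fold change was -2.21 ± 1.10 with an edgeR adjusted p of 0.463, while DESeq2 called it lower (adjusted p = 0.0354). Slc7a11 (xCT), the cystine importer of glutathione synthesis, was at or below 4.16 TPM in the 8 sets. Slc7a8 reached 3.57 TPM at day 4 at most.

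Slc7a3 (ENSMUSG00000031297, chromosome X) encodes CAT-3, a carrier of arginine and lysine. It had 15.4 and 12.1 CPM in b1 and b2 at day 0, 8.59 CPM at day 1, 1.33 and 44.2 CPM in b1 and b2 at day 3, 23.9 CPM at day 4, 96.4 CPM at day 5 and 141 CPM at day 7. The sets of days 5 and 7 were higher than all others, and the sets of day 3 lay on either side of day 0. Slc7a3 rose at day 5 by a log2 fold change of 2.81 ± 0.66 (edgeR adjusted p = 0.00109) and at day 7 by 3.36 ± 0.67 (edgeR adjusted p = 3.24e-05) relative to day 0. For day 5 against day 3 the log2 fold change was 2.08 ± 0.66, which missed the threshold (edgeR adjusted p = 0.0755). Without the b2 set of day 3 this log2 fold change was 6.18, and without either day 0 set it was 2.08. Without the b1 set of day 3 only b2 is left on that day, with 44.2 CPM, against 96.4 CPM at day 5. The size of this comparison thus depended on which day 3 set was kept. DESeq2 called neither day 5 (adjusted p = 0.166) nor day 7 (adjusted p = 0.0549), limma on log2(TPM + 1) did neither (0.612 and 0.416), nor did the fit with all 10 sets (0.3 and 0.11), and day 5 was lost with the highest cells left out (0.105).

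A larger share of cells had Slc7a3 at days 4, 5 and 7 than in either day 0 set. It was detected in 6 of 20 and 12 of 54 cells in b1 and b2 at day 0, 16 of 58 at day 1, 3 of 61 and 13 of 58 in b1 and b2 at day 3, 24 of 59 at day 4, 37 of 79 at day 5 and 44 of 65 at day 7. The share at day 7 was 67.7% (exact 95% interval 54.9 to 78.8). Across cells of 1 set, Slc7a3 and Dppa5a levels were correlated with a Spearman coefficient of 0.49 at day 4 (59 cells), 0.72 at day 5 (79 cells) and 0.67 at day 7 (65 cells). At day 3 it was 0.04 in b1 (61 cells) and 0.27 in b2 (58 cells). The coefficients of Slc7a3 with the number of genes per cell were 0.22, 0.08 and 0.22 at days 4, 5 and 7. The coefficient with the total count was -0.34 at day 7. Cells of a set are not replicates, and the labels do not say whether they share a chip or a library preparation. For Slc7a9 the coefficients with Dppa5a were -0.28, 0.19 and -0.06 at days 4, 5 and 7.

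Slc7a1 (CAT-1), the broadly expressed cationic carrier, was present in cells of all sets and had 102.2 and 105 CPM in b1 and b2 at day 0 and 72.1 CPM at day 1. It had 86.02 and 101 CPM in b1 and b2 at day 3, 62.2 CPM at day 4, 109 CPM at day 5 and 49.02 CPM at day 7. The day 7 value was the lowest, with a log2 fold change of -1.08 ± 0.59 that did not pass the test (edgeR adjusted p = 0.357). Per length, Slc7a3 averaged 96.8 TPM and Slc7a1 11.7 TPM at day 7, against 8.68 and 27.2 TPM in b1 and 7.05 and 22.8 TPM in b2 at day 0. Cells with Slc7a3 and without Slc7a1 numbered 16 of 65 at day 7, against 0 of 20 and 1 of 54 in b1 and b2 at day 0. Slc7a14, a lysosomal relative, had 64.3 CPM at day 4, against 21.7 and 12.6 CPM in b1 and b2 at day 0, and did not pass the test (1.91 ± 0.74, edgeR adjusted p = 0.194). Slc7a2 stayed at or below 2.05 TPM, and Slc7a4 at or below 4.21 TPM.

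**Figure D4:**
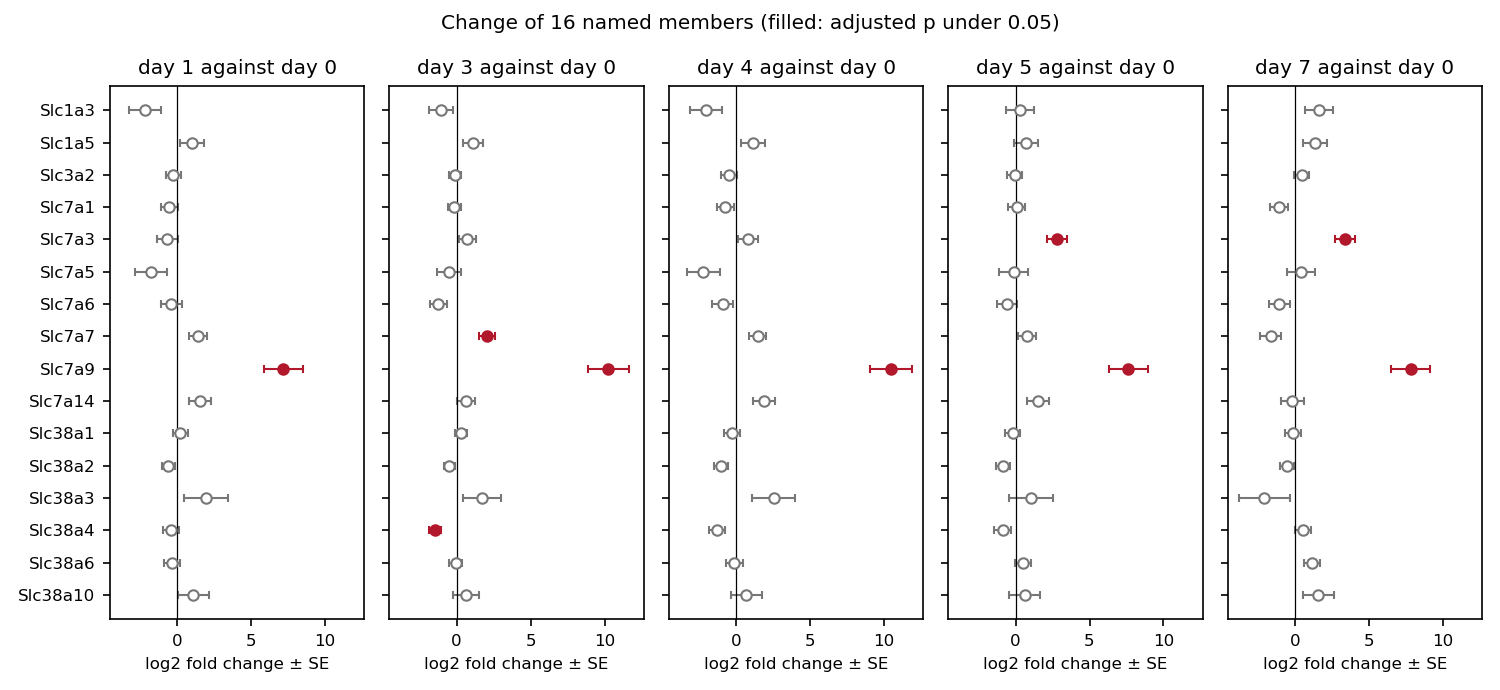
Log2 fold change against day 0 with its standard error for 16 of the 17 named genes (rows) on days 1, 3, 4, 5 and 7 (panels), filled red where the edgeR adjusted p was under 0.05. Slc38a5 is left out because it had no count at day 0. Slc7a9 is filled in all 5 panels, Slc7a3 at days 5 and 7, and Slc7a7 and Slc38a4 at day 3.

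System A genes made up the largest part of the transporter RNA. Slc38a2 (SNAT2), the main inducible glutamine and alanine carrier of fibroblasts, ranked first in each of the 8 sets with 171 to 334 TPM. Its level was 1041 and 1226 CPM in b1 and b2 at day 0, 745 CPM at day 1, 686 and 924 CPM in b1 and b2 at day 3, 553 CPM at day 4, 635 CPM at day 5 and 784 CPM at day 7. All later sets of the 8 lay below both day 0 sets, and none of the 5 comparisons passed the test (log2 fold changes from -1.04 ± 0.46 at day 4 to -0.49 ± 0.36 at day 3, edgeR adjusted p of 0.338 or more). Slc38a1 (SNAT1) stayed between 107 and 169 CPM, with day 0 at 113 and 147 CPM in b1 and b2.

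Slc38a4 (ENSMUSG00000022464, chromosome 15), a system A carrier that is expressed from the paternal allele in mouse, fell at day 3 relative to day 0. It had 51.6 and 67.5 CPM in b1 and b2 at day 3, against 138 and 191 CPM in b1 and b2 at day 0. The sets did not overlap, and the log2 fold change was -1.46 ± 0.44 (edgeR adjusted p = 0.0304). In the b1 pair the log2 difference was -1.40 and in the b2 pair -1.49, with no test. Slc38a4 had 124 CPM at day 1, 66.5 CPM at day 4, 89.2 CPM at day 5 and 239 CPM at day 7, none of which passed the test. One cell held 36.2% of the day 7 counts, and the median over cells was 18.2 TPM at day 7, against 59.2 and 46.8 TPM in b1 and b2 at day 0. Over the 14 other settings the day 3 value stayed negative, from -1.68 to -1.16, and 5 of the 14 called it. Without the b2 set of day 0 it was -1.21 (adjusted p = 0.114), without the b1 set of day 3 -1.28 (adjusted p = 0.641) and without the b2 set of day 3 -1.67 (adjusted p = 0.372). Slc38a1, Slc38a2 and Slc38a4 lie side by side on chromosome 15, with 0 other coding genes between neighbours.

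System N genes, which carry glutamine, histidine and asparagine, were rare. Slc38a5 (SNAT5, chromosome X) was at 0 CPM in the sets of days 0, 1, 3 and 4, 0.316 CPM at day 5 and 8.23 CPM at day 7. Day 7 was at least 662-fold higher than 3 counts over all day 0 cells would be (edgeR adjusted p = 0.0284). At day 7 it had a count in 3 of 65 cells and 1 TPM or more in 2, 1 cell held 77.97% of the counts, and the call, with that cell and the highest of the other sets left out, was lost (adjusted p = 0.128). It was lost as well without either day 0 set or either day 3 set (adjusted p from 0.0805 to 0.134). Slc38a3 (SNAT3) had 0.0898 and 5.29 CPM in b1 and b2 at day 0, 10.4 CPM at day 1, 11.1 and 6.77 CPM in b1 and b2 at day 3, 15.7 CPM at day 4, 5.64 CPM at day 5 and 0.644 CPM at day 7. It did not pass the test. Without the b2 set of day 0 its log2 fold changes at days 1, 3, 4 and 5 were 5.96 or more. The b1 set that is then left at day 0 holds 5 counts in 2 cells, so these sizes rest on the floor. Without the b1 set of day 0 the day 1 value was 0.972. Slc38a3 was detected in 18 of 58 cells at day 1 and 19 of 59 at day 4, against 1 of 20 and 2 of 54 in b1 and b2 at day 0.

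No other Slc38 gene passed the test. Slc38a6 was detected in 448 of 461 cells and had 95.2 and 56.8 CPM in b1 and b2 at day 0 and 59.4 CPM at day 1. It had 64.5 and 81.1 CPM in b1 and b2 at day 3, 69.6 CPM at day 4, 107 CPM at day 5 and 170 CPM at day 7. The day 7 value was the highest, with a log2 fold change of 1.16 ± 0.54 that did not pass the test (edgeR adjusted p = 0.236). Slc38a10 had 13.5 to 28.04 CPM in the later sets, against 6.61 and 12.3 CPM in b1 and b2 at day 0. Slc38a9, the lysosomal arginine sensor of mTORC1, was between 1.46 and 2.67 TPM in the 8 sets.

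No member of the Slc1 family passed the test. Slc1a5 (ASCT2), the exchanger that brings in glutamine, had 16.9 and 14.2 CPM in b1 and b2 at day 0 and 30.9 CPM at day 1. At day 3 it had 56.6 and 9.41 CPM in b1 and b2, and it had 33.9, 25.5 and 39.6 CPM at days 4, 5 and 7. The largest of its 5 log2 fold changes was 1.35 ± 0.79 at day 7 (edgeR adjusted p = 0.416). It was detected in 47 of 61 cells in b1 and in 24 of 58 cells in b2 at day 3. Slc1a3 (GLAST), a glutamate and aspartate carrier, had 62.6 CPM at day 7, against 10.96 and 29.4 CPM in b1 and b2 at day 0, and 1 cell held 49.2% of the day 7 counts. Glial and neural markers, 8 in all, summed to between 2.77 and 89.4 TPM over the 8 sets. Endothelial markers summed to between 1.31 and 33.2 TPM. Of the 89.4 TPM, found at day 7, Tubb3 alone gave 81.7 TPM, and Sox10, Gfap, Olig2 and Rbfox3 were at 0. The part of these markers in the Slc1a3 level was not tested. The neuronal and glial carriers Slc1a1, Slc1a2 and Slc1a6 were at or below 1.41 TPM in the 8 sets. The 2 b1 cells of day 7 averaged 14.8 TPM of Slc1a6, all of it in 1 cell.

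Altogether 16 of the 35 genes reached a mean of 10 TPM in at least 1 of the 8 sets, and 16 were at 1 TPM or more in all 8. Of the 17 named genes 6, Slc38a2, Slc3a2, Slc38a6, Slc7a6, Slc7a1 and Slc38a1, varied by less than 3-fold in mean TPM over the 8 sets. The other 18 genes reached at most 7.61 TPM in the 8 sets. Over the 8 sets a cell had a median of 9 to 15 of the 35 genes at 1 TPM or more. The lowest median was in b2 at day 0 and the highest at day 4. These sets also had the lowest and the highest median number of genes with a count per cell, 7743 and 9937. The part of this in the number of transporter genes was not tested. Summed over the 35 genes, the mean per cell was 760 and 738 TPM in b1 and b2 at day 0, 503 TPM at day 1, 801 and 747 TPM in b1 and b2 at day 3, 641 TPM at day 4, 646 TPM at day 5 and 969 TPM at day 7. Slc38 took the largest part of it in each of the 8 sets, 299 to 547 TPM, while Slc7 was at 237 and 199 TPM in b1 and b2 at day 3 and at 139 and 102.4 TPM in b1 and b2 at day 0.

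For day 5 against day 3, the step at which Dppa5a became abundant, 0 of the 32 genes passed edgeR's test, where 1.71% of all genes were called (0.643% higher and 1.07% lower), and 3 had an unadjusted p under 0.05. DESeq2 called 0 as well. The median log2 fold change was -0.18, beside -0.14 over all genes.

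Genes of amino acid metabolism around the transporters changed in small numbers, to be read against the 1.18%, 3.14%, 3.03%, 4.73% and 6.60% of all genes called at days 1, 3, 4, 5 and 7 and the 1.71% called for day 5 against day 3. Of 24 amino acid response targets of Atf4, 0 rose and 1 fell at days 1 and 3, Trib3, which is named although it was too low for the naming rule, after its values were seen. Trib3, a pseudokinase, had 0.0166 CPM at day 1, against 13.7 ± 6.67 CPM at day 0 (SD, n = 2). At days 4 and 5 none of the 24 passed edgeR's test, with 9 and 4 at an unadjusted p under 0.05, where 2302 and 3064 of all 22378 genes were, and at day 7 Asns alone rose. The list medians were -0.55, -0.74, -1.18, -0.53 and -0.51 at days 1, 3, 4, 5 and 7, beside 0, 0.11, 0, 0 and 0 over all genes. Asns, asparagine synthetase, had 988 CPM at day 7, against 166 ± 55.7 CPM at day 0 (SD, n = 2), a log2 fold change of 2.58 ± 0.46 with an edgeR adjusted p of 1.78e-06. It also rose at day 5 relative to day 3, with 362 CPM at day 5 and 119 ± 68.5 CPM at day 3. Of 13 genes of arginine, ornithine and polyamines, Ass1, argininosuccinate synthase, rose at day 1 to 1516 CPM, against 307 ± 267 CPM at day 0, and was lower at day 5 than at day 3. Odc1, the enzyme that makes putrescine, rose at day 7 with 440 CPM, against 165 ± 30.1 CPM at day 0.

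The lists that follow hold 8 to 19 genes, so 1 call in a list is not set apart from the share of all genes called on the same day (4.73% at day 5 and 6.60% at day 7). Of 12 genes of glutamine and glutamate metabolism, Gfpt2 of the hexosamine pathway rose at day 3 with 158 ± 37.6 CPM, against 44.3 ± 12.1 CPM at day 0, and was lower at day 5 than at day 3. Cad, the first enzyme of pyrimidine synthesis, rose at day 7 with 187 CPM, against 33.1 ± 18.2 CPM at day 0. Of 8 genes of glutathione synthesis, Gsr rose at days 5 and 7, to 73.01 and 73.2 CPM, against 14.5 ± 2.63 CPM at day 0. Of 8 genes of branched-chain amino acid breakdown, Bcat1, the cytosolic transaminase, rose at days 5 and 7 with 361 and 402 CPM, against 131 ± 57.1 CPM at day 0. Of 17 genes of amino acid sensing by mTORC1, Rragd, a Rag GTPase, rose at days 4 and 5 with 150 and 135 CPM, against 34.1 ± 19.7 CPM at day 0. Of 19 genes of other amino acid transporter families 14 were tested, and Slc16a10, a carrier of aromatic amino acids, rose at day 3 with 60.5 ± 62.2 CPM, against 10.6 ± 8.98 CPM at day 0, where the sets overlap. Slc16a10 was lower at day 5, with 1.77 CPM, than at day 3. The medians of these lists lay between -1.27 and 1.36 on the log2 scale over the 6 comparisons.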

How the data were processed

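The deposited tables give RSEM expected counts and TPM per gene for each of 461 mouse cells. The submitters' processing notes name bcl2fastq and RSEM 1.2.22, and the authors deposited expected counts that are not normalized, of which 9.11% of values are not whole. The deposited TPM values are per cell, as the authors scaled them. A build or aligner is not given in the sources used here. For each set (prefix by day) the expected counts of its cells were added and rounded. The 8 sets with 10 or more cells entered 1 edgeR 4.0.16 quasi-likelihood fit on day (R 4.3.3, TMM factors from 0.833 to 1.15, filterByExpr, no block on the prefix). Days 0 and 3 gave 2 residual degrees of freedom, the prior degrees of freedom were infinite, and p rests on the spread shared over genes. SE was taken as |log2 fold change| divided by the root of F. DESeq2 1.42.0 and limma 3.58.1 were alternatives. The fit was also run on simulated counts drawn with its own dispersions. Such counts cannot show how it handles spread that comes from single cells. Members, gene lists and tests were chosen with earlier results of these data known. Genes were named if called or at 10 TPM or more in a set, and list genes if called with 50 CPM or more in a set of the higher day, up to 4 per list and comparison. Promoters are RefSeq, GRCm38.p6, matched by symbol. No cell was removed and no doublet caller was run.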

Additional observations from a re-analysis of the deposited data

Results flagged for a closer look

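Slc7a3 moved in opposite directions in the 2 prefixes between day 0 and day 3, by a log2 difference of -2.82 in b1 and 1.78 in b2, as log2 of CPM plus 1. Slc3a1 did the same with -2.24 in b1 and 2.13 in b2. So did Slc7a8 with 2.82 in b1 and -1.97 in b2, and Slc1a2 with 1.57 in b1 and -1.11 in b2. Single cells weighed heavily in these values. In b1, 1 cell held 78.7% of the Slc7a3 counts at day 3 and 1 cell held 100% of the Slc3a1 counts at day 0. In b2 at day 0, 1 cell held 90.8% of the Slc7a8 counts and 1 cell held 74.7% of the Slc1a2 counts. The difference between the prefixes was not tested, since each prefix has 1 set per day. At day 3 Dppa5a was detected in 4 of 61 cells of b1 and in 24 of 58 cells of b2, and the part of this in the opposite values was not tested.

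The 5 cells of b1 at day 5 and the 2 cells of b1 at day 7 were too few for the fit, and some members stood at 10 TPM or more there and at over 2 times the higher day 0 set. At day 5 these were Slc38a6 with a mean of 141.8 TPM, Slc7a3 with 80.2 TPM and Slc7a9 with 25.4 TPM, the last found in 1 of the 5 cells. At day 7 they were Slc7a3 with 108.8 TPM, Slc7a5 with 49.1 TPM, Slc1a5 with 21.5 TPM, Slc1a6 with 14.8 TPM and Slc38a7 with 13.9 TPM. Slc1a6 was found in 1 of the 2 cells. For each of the others 1 cell held from 88.2% (Slc38a7) to 95.4% (Slc7a5) of the counts. For Slc7a3 the b2 cells had 50.04 TPM at day 5 and 96.8 TPM at day 7.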

How the results depend on the processing

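The number of members called was 1, 3, 1, 2, 3 and 0 for days 1, 3, 4, 5 and 7 against day 0 and day 5 against day 3. With limma on log2(TPM + 1) or log2(TPM + 0.1) it was 0 at days 1, 3, 4 and 5 and 1 at day 7, and with all 10 sums 0 in the 5 comparisons with day 0. The deviations of same-prefix sets at days 0 and 3 correlated at r = 0.083 over 8589 genes, a single value that shows no pairing and cannot exclude one; with the replicate block on 7 sets the counts were 0, 1, 0 and 0 at days 1, 3, 5 and 7, and 0 for day 5 against day 3. DESeq2 called 2 at day 4 and 1 at day 5. Without the highest cell of each set 2 were called at day 1 and 2 at day 4. Leaving out each set of day 0 or day 3 gave 1 to 2 calls at day 1, 1 to 3 at day 3, 1 to 2 at day 4, 2 to 3 at day 5, 2 to 3 at day 7 and 0 to 1 for day 5 against day 3. Other counts were within 1.5 times. Slc7a3 at day 3 turned from 0.72 to -3.37 (adjusted p = 0.025) without the b2 set of day 3, and its leave-one-out values ran from -3.37 to 1.68. Slc7a9 kept its direction in every alternative, with log2 values from 2.09 to 15.5 over the 5 comparisons, and was not called by limma, by all 10 sums or, except at day 3, by the block. Over all genes DESeq2 called 716, 1559, 1233, 2149, 2881 and 1006 genes, where edgeR called 265, 703, 679, 1059, 1477 and 383. Without normalization factors the median over all genes moved from 0.11 to 0.41 at day 3 and from 0 to 0.30 at day 4, and the share of calls that were higher from 66.9% to 78.04% and from 68.2% to 80.03%. The cause of these differences was not tested. Counting a TPM above 0 as detection raised the share with Slc7a9 at day 3 to 60.7% in b1 and 53.4% in b2. One set per day limits days 1, 4, 5 and 7, and the block could not be fitted for day 4.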
